A study of Mus musculus with 12 samples.

Results

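A window of 960 kb on mouse chromosome 10, whose first and last regions lie at 84177560 and 85119814 in the mm9 build and which holds Ric8b, the clock gene Cry1 and Btbd11, in this order, was described for RNA recovered with HP1γ from chromatin. Its members are all deposited regions of enriched RNA that overlap the window, 54 of 10013 regions in untreated cells and 17 of 2609 after phorbol ester treatment, or 71 of 12622 in all. The window was chosen because it is crowded with regions, so the number and closeness of its regions are a description and not a finding. The placement of the 3 genes came with this choice and was not checked, because no mm9 annotation was used here. No region below is therefore assigned to a gene, exon or intron, and no region sequence is shown.

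The cells were mouse embryonic fibroblast-derived lines in which HP1γ (Cbx3) had been knocked out and its expression was then restored, a background shared by every sample. The labels do not say whether the line is a single clone. RNAchIP-seq sequenced the RNA of a chromatin-enriched input and of an HP1γ immunoprecipitate (IP) from lightly crosslinked nuclei. The 12 libraries form 4 groups of 3 biological replicates: input and IP from untreated cells, and input and IP from cells given PMA, a phorbol ester that activates protein kinase C, at 100 nM for 30 min. Neither a mock IP nor an IP from cells without HP1γ is among these samples, so enrichment over input cannot be told apart from unspecific recovery of RNA. The data are 2 lists of regions, 1 per condition, with no fold, width or depth per library. Depth is therefore unknown, no region has a replicate error, the fibroblast identity could not be checked against markers, and no region could be tested between conditions. The names of the joined peaks still give counts of peaks per replicate, used below.

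HP1γ is a chromodomain protein that reads methylated histone H3 and is found both in heterochromatin and along transcribed genes. Ric8b encodes a chaperone and exchange factor for Gα subunits of the stimulatory family. Cry1 encodes a cryptochrome, a repressor of the CLOCK and BMAL1 activator pair in the circadian feedback loop. Btbd11 encodes a protein with ankyrin repeats and a BTB domain. In the RefSeq annotation of another build, GRCm38, the protein-coding genes Fhl4, Tmem263 and Mterf2 lie between Ric8b and Cry1, none lies between Cry1 and Btbd11, and Rfx4 precedes Ric8b.

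In untreated cells the 54 regions lay in 4 stretches parted by gaps of over 100 kb, a limit set after seeing the data. The first stretch, at the window's start, held 2 regions. The second, from 84400415 to 84478361, held 10. The third was a lone region of 206 bp (84590541 to 84590746) with a fold of 5.02. The fourth, from 84850482 to 85119814, held 41. The empty gaps between them measured 216, 112 and 260 kb. The 17 regions of the PMA list fell in the same order, with 1 in the first stretch, 3 in the second, none in the third and 13 in the fourth. The longest gap after PMA was 384 kb, from 84477727 to 84862043, and took in the position of the lone untreated region.

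**Figure D1:**
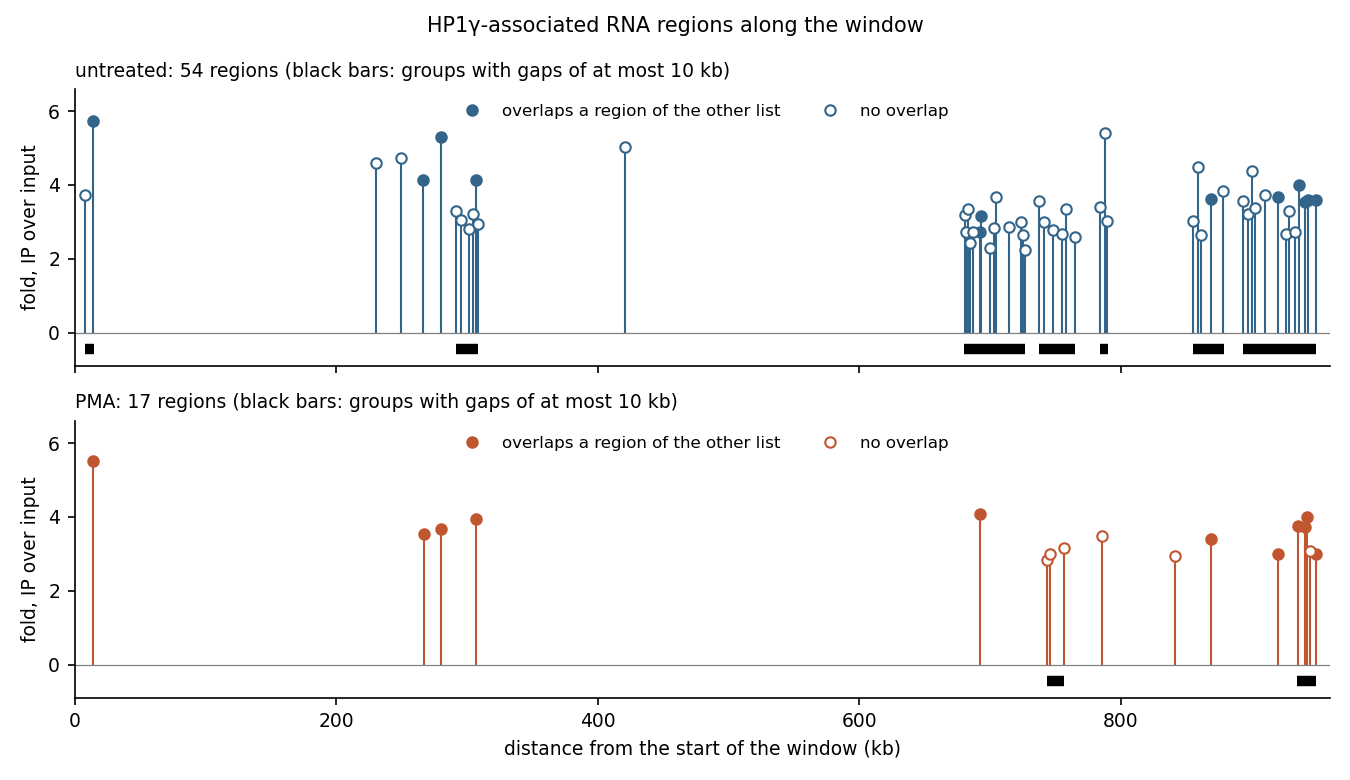
Regions along the window in the untreated list (upper panel, 54 regions) and the PMA list (lower panel, 17 regions), with the distance of each region's centre from the window's start in kb on the x axis and the authors' fold of IP over input on the y axis. Filled circles overlap a region of the other list, open circles do not, and black bars mark groups with gaps of at most 10 kb, 7 in the untreated list and 2 in the PMA list.

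With a gap of at most 10 kb taken to hold a group together, the untreated regions formed 7 groups of 2 to 14 regions and 5 lone regions. In the whole untreated list 63.7% of regions had another within 10 kb, against 49 of 54 here, a share that the choice of the window fixes. Of the 53 gaps between neighbours, 7 were under 1 kb, 35 were 1 to 10 kb and 11 were longer, and the shortest was 37 bp. Gaps under 1 kb made up 13.2% here and 13.1% over the whole untreated list. In the PMA list they were 2 of the window's 16 gaps, or 12.5%, against 5.79% over the list. The PMA regions formed 2 groups, of 3 and 5 regions, and 9 lone regions. Over the PMA list 42.1% of regions had a neighbour within 10 kb, and 8 of 17 did here.

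The first untreated group was a pair. Its first region (84177560 to 84178625) was 1066 bp wide with a fold of 3.72, and its second (84183890 to 84184611) was 722 bp wide with the highest untreated fold of the window, 5.74. The PMA list held 1 region there (84183531 to 84184635), 1105 bp wide, at 5.52, the highest fold of the PMA regions of the window. This site thus had the highest fold of the window in both conditions.

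The second stretch opened with 4 lone regions, at 84400415 to 84400815, 84419647 to 84420050, 84436449 to 84437178 and 84449512 to 84450290. Their folds were 4.60, 4.72, 4.14 and 5.29, all above the untreated list's median of 3.65, and the last 2 overlapped a PMA region. They were followed by the second group, 6 regions within 17.0 kb (84461350 to 84478361) with lower folds of 2.81 to 4.14 and a median of 3.12. Its strongest region (84476582 to 84477663) was the 1 of the 6 that overlapped a PMA region. The closely packed regions of this stretch thus had lower folds than the lone ones, with the exception of that region at 4.14, level with the lone region at 84436449.

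The fourth stretch held 5 groups. The third group was the largest, with 14 regions in 46.3 kb (84850482 to 84896815), which covered 19.0% of that length and were 273 to 1250 bp wide. It had the lowest median fold of the 7 groups, 2.78, with a range of 2.24 to 3.67. In the PMA list a single region lay in it (84862043 to 84863615), 1573 bp wide at 4.09, the second highest fold of the PMA regions. This region spanned 2 untreated regions that were 37 bp apart, of folds 2.73 and 3.16. The fourth group had 6 regions in 27.7 kb (84907435 to 84935115) with folds of 2.59 to 3.56, and the fifth had 3 in 5.70 kb (84954330 to 84960033).

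The middle region of the fifth group (84957447 to 84958315) had a fold of 5.41 and the highest −log10 q of the untreated regions of the window, 13.1. Its neighbours on either side were at 3.40 and 3.03. It did not overlap a PMA region, although a PMA region (84955374 to 84956211) with a fold of 3.47 lay between it and its upstream neighbour. The sixth group, 65.2 kb further on, held 5 regions in 23.5 kb (85025268 to 85048760) with folds of 2.65 to 4.49.

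The seventh group was the longest, with 13 regions over 56.1 kb (85063734 to 85119814) and folds of 2.66 to 4.38. It included the widest untreated region of the window (85104711 to 85107487), 2777 bp at a fold of 3.99, and the region at 85112507 to 85113742, the third widest at 1236 bp. The second widest, 1250 bp, was in the third group (84854368 to 84855617) and had a fold of 2.42. The second PMA group lay within the seventh untreated group, with 5 regions in 15.0 kb (85104641 to 85119671) that covered 46.9% of that length. It contained the widest PMA region of the window (85104641 to 85107379), 2739 bp at 3.75, and a region of 1566 bp (85111749 to 85113314) at 3.99. The widest regions of both lists in the window thus coincided near its end. Other wide PMA regions lay elsewhere, at 84475501 to 84477727 (2227 bp) and 84862043 to 84863615 (1573 bp).

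Across the window, untreated folds had a median of 3.29 (order-statistic 95% interval 3.03 to 3.56) against 3.65 over all untreated regions, and 16 of the 54 were above the latter. The other 728 untreated regions of chromosome 10 had a median of 3.49. PMA folds in the window had a median of 3.47 (3.01 to 3.75), against 3.50 over all PMA regions, and 8 of 17 were above the latter. These are comparisons of values within 1 list, and neighbouring regions are not independent. By stretch, the 10 untreated regions of the second had a median of 3.71, and the 41 of the fourth 3.20. The corresponding PMA medians were 3.68 and 3.16, over 3 and 13 regions.

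Untreated regions in the window were 206 to 2777 bp wide with a median of 562.5 bp (494 to 730), against 528 bp in the whole list. PMA regions were 386 to 2739 bp wide with a median of 838 bp (702 to 1388), against 780 bp. Width went with the number of peaks joined in a region, in part by construction, because joining more peaks can widen a region. The 41 untreated regions of 3 member peaks had a median width of 509 bp, and the 13 with 4 or more, 1066 bp. Spearman's rho between width and member peaks was 0.66 over the 54 untreated and 0.67 over the 17 PMA regions, as a description of regions that share their libraries.

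Replicate support was read from the member peaks that each region lists. All 3 replicates contributed to 51 of the 54 untreated regions, 94.4% where the whole list had 91.9%. Of the 3 others, the region at 84850482 to 84851088 and that at 84869371 to 84870132 lacked replicate 2, and that at 84934663 to 84935115 lacked replicate 3. Their folds were 3.20, 2.30 and 2.59. Exactly 1 peak per replicate was joined in 38 regions, or 70.4%, where the list had 69.9%. More than 3 peaks were joined in 13 of 54, where the list had 22.5%. The most, 8, were in the widest region, with 3, 2 and 3 from replicates 1, 2 and 3.

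All 17 PMA regions had member peaks from replicates 2 and 3, the 2 that appear in that list, and none from replicate 1. The same held for all 2609 regions of the PMA list, so it does not set the window apart. No region of either list had fewer than 3 member peaks, a minimum read from the lists and not from a stated filter. Each of the 17 thus had 2 or more from 1 of these 2 replicates. More than 3 peaks were joined in 4 of the 17, where the PMA list had 16.4%. The most were 6, in the region at 84475501 to 84477727 (2227 bp, fold 3.95), followed by 5 at 85038379 to 85039766 (1388 bp, 3.41).

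**Figure D2:**
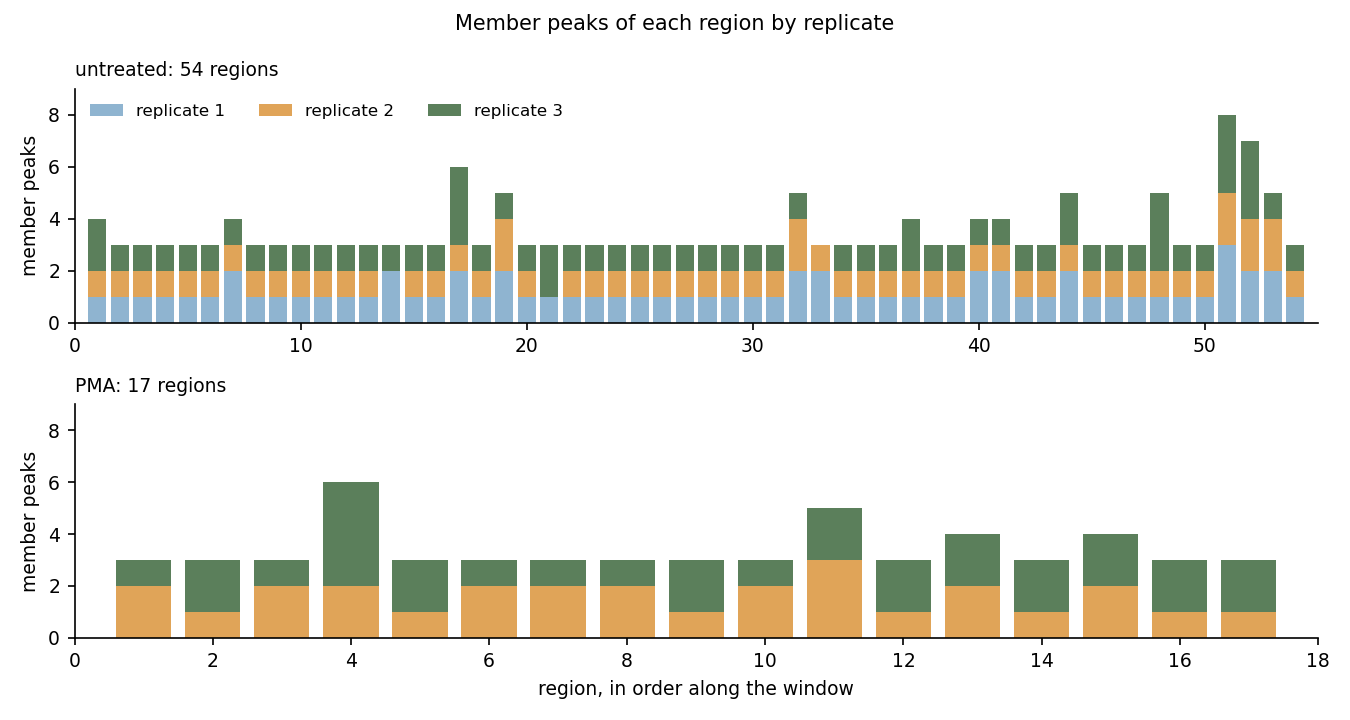
Member peaks of each region by replicate, in order along the window, for the untreated list (upper panel, 54 regions) and the PMA list (lower panel, 17 regions). Bar height is the number of peaks joined in a region and colours mark the replicate: 38 untreated regions have exactly 1 peak from each replicate, and PMA regions have none from replicate 1.

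The lists cannot be compared by number alone, since 3 replicates were joined in the untreated list and 2 in the other. The untreated list had 3.18 times as many regions in the window as the PMA list, and 3.84 times over the genome. When the member peaks of untreated replicate 1, 2 or 3 were left out and 3 were still required, 10, 15 or 11 untreated regions remained in the window, fewer than the 17 of the PMA list. In the untreated list shortened to the PMA list's length by −log10 q, 12 remained. The direction of the difference in number thus turned under each of these 4 settings. This was not particular to the window: without replicate 1, 2 or 3 the whole untreated list fell to 1505, 1988 or 2367 regions, also fewer than the PMA list's. The share of regions kept was 18.5%, 27.8% and 20.4% in the window and 15.0%, 19.9% and 23.6% over the list.

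Member peak numbers rise along each chromosome within a replicate, so their span counts the peaks numbered in the window, including those not kept in a region. This reading takes the numbers to be consecutive. Untreated replicates 1, 2 and 3 spanned 222, 149 and 116 peaks, and the PMA replicates, 2 and 3, spanned 153 and 252, so the conditions overlapped. Relative to the highest number in each replicate, the window held 0.254%, 0.365% and 0.347% of untreated peaks and 0.309% and 0.273% of PMA peaks. Both PMA shares lay between the lowest and the highest untreated share (exact permutation test over 3 and 2 replicates, two-sided p = 0.6, where the smallest p this design allows is 0.2). The test cannot decide whether the conditions differ, because it cannot reach a low p. The window was also chosen for how many untreated regions it holds, and those regions are joined from the untreated peaks counted here. Of all peaks numbered in the window, the share that ended in a region was 30.2%, 38.3% and 56.0% in the untreated replicates. It was 18.3% and 11.9% in the PMA replicates. The untreated and PMA shares did not overlap, and over the whole lists they did not either, at 13.6%, 27.1% and 31.3% against 8.85% and 4.34%. The shares are not like for like, because regions of both lists have at least 3 member peaks. Those peaks came from 3 replicates in the untreated list and from only 2 in the PMA list.

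**Figure D3:**
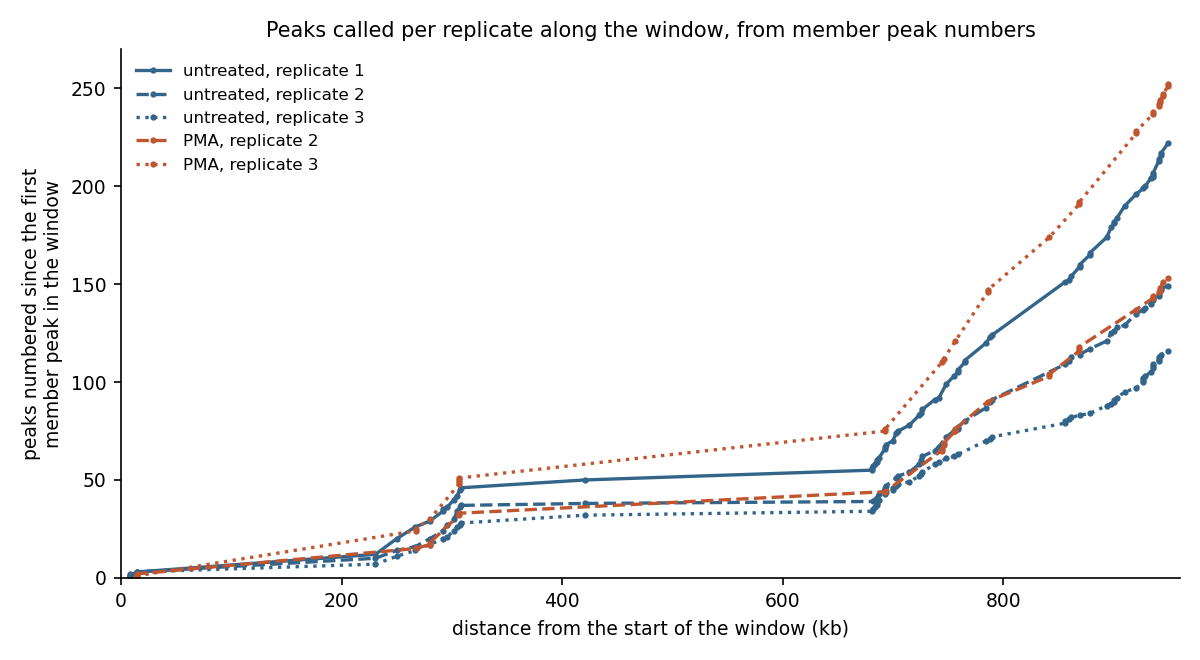
Peaks numbered since the first member peak in the window (y axis) against distance from the window's start in kb (x axis), 1 line per replicate, with a point at each member peak. Each of the 5 lines climbs slowly between the second stretch and the fourth and steeply along both, and the final values, 116 to 222 untreated and 153 to 252 after PMA, overlap.

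The same numbers count the peaks that were called in the gaps but not joined, which were denser in the shorter gaps. The 3 untreated gaps of over 100 kb held 15, 6 and 7 numbered peaks in replicates 1, 2 and 3, or 2.55, 1.02 and 1.19 per 100 kb. The 8 untreated gaps of 10 to 100 kb held 63, 38 and 27, or 37.4, 22.5 and 16.0 per 100 kb. In the longest of these, the 65.2 kb between the fifth group and the sixth, replicates 1, 2 and 3 had 26, 17 and 6 peaks and yet no region. The 27 peaks of replicate 3 in the 8 gaps, and the 16.0 per 100 kb, are upper limits. The region at 84934663 to 84935115, which borders 1 of these gaps, has no replicate 3 peak, so peaks before it may be counted in that gap. Summed over gaps, the long ones had fewer peaks per 100 kb than the shorter ones in each replicate. This follows in part from how gaps are defined, because regions are joined from these same peaks. The limit of 100 kb was also set after seeing the data. Single short gaps could also be sparse, such as that from 84420050 to 84436449 with 1 peak in replicate 2.

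After PMA the order was the same, with gaps defined in the same way. The 2 gaps of over 100 kb held 22 and 45 peaks in replicates 2 and 3, or 3.46 and 7.07 per 100 kb, and the 8 gaps of 10 to 100 kb held 93 and 162, or 35.5 and 61.9 per 100 kb. Between the PMA regions ending at 84863615 and starting at 84913720, a gap of 50.1 kb that takes in part of the third untreated group, replicates 2 and 3 had 20 and 33 numbered peaks. Both PMA replicates thus had called peaks in a gap for which the list has no region.

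Overlap between the lists was counted at 1 bp or more. Of the 54 untreated regions, 12 (22.2%, exact 95% interval 12.0 to 35.6, for counting error only) overlapped a PMA region, where the share over the whole untreated list was 15.5%. Of the 17 PMA regions, 11 (64.7%, 38.3 to 85.8) overlapped an untreated one, where the whole PMA list had 54.8%. Both intervals contain the share of the whole list, which decides nothing, because they treat neighbouring regions as independent. The shares also rest on how many replicates were joined. Without 1 untreated replicate, 23.5% to 29.4% of the PMA regions here overlapped an untreated one, and 19.7% to 25.03% over the whole PMA list. Without 1 PMA replicate, 1 PMA region remained and 1.85% of the untreated regions overlapped it. The 12 pairs comprised 1 in the first group, 2 among the lone regions, 1 in the second group, 2 in the third, 1 in the sixth and 5 in the seventh. The fourth group and the fifth had none.

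Folds in the 12 pairs were higher in the untreated list in 8 and in the PMA list in 4, with a median ratio of PMA to untreated of 0.95 and a range of 0.70 to 1.5. The pairs hold 11 PMA regions, because that at 84862043 to 84863615 was paired with 2 untreated regions. It had the higher fold in both of these pairs, so the pairs are not independent. The share over all pairs of the lists was not computed. Over the whole lists, regions with a partner had a median fold of 3.63 untreated and 3.56 after PMA. The largest fall was at 84449512 to 84450290, from 5.29 to 3.68, although the bounds of both regions differed by at most 52 bp. The largest rise was at the untreated region 84862315 to 84863080, from 2.73 to 4.09, where the mean −log10 q went from 2.66 to 12.2. In 5 of the 12 pairs the folds were within 10% of each other. With no replicate error, none of these differences can be set against the spread between replicates.

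Of the other pairs upstream of the third group, 2 were within 10% in fold and 1 was not. At the first group the values were 5.74 and 5.52, untreated and PMA. At 84436449 to 84437178 they were 4.14 and 3.53, and at 84476582 to 84477663 they were 4.14 and 3.95. Untreated values were thus the higher ones at each of the 4 pairs upstream of the third group.

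In the sixth group the pair at 85038850 to 85039744 had folds of 3.63 untreated and 3.41 after PMA. In the seventh, folds were 3.66 and 2.99 at 85090353 to 85090723, 3.99 and 3.75 at 85104711 to 85107487, 3.55 and 3.72 at 85110416 to 85111591, 3.59 and 3.99 at 85112507 to 85113742, and 3.60 and 3.01 at 85118907 to 85119814. The direction was mixed in this group, with 3 of 5 pairs higher in the untreated list.

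PMA regions were the wider ones in 9 of the 12 pairs, of which those at 84862315 and 84863118 share a PMA region. Over the whole lists, regions with a partner had a median width of 913 bp in the PMA list and 713 bp in the untreated list. The share of all pairs in which the PMA region was wider was not computed, so the 9 of 12 cannot be set against it. At 84476582 the untreated region was 1082 bp and the PMA region 2227 bp wide, with 3 and 6 member peaks. In the widest pair, at 85104711, they were 2777 and 2739 bp, with 8 and 4 member peaks. More than 90% of the untreated region was covered by its partner in 9 of the 12 pairs.

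**Figure D4:**
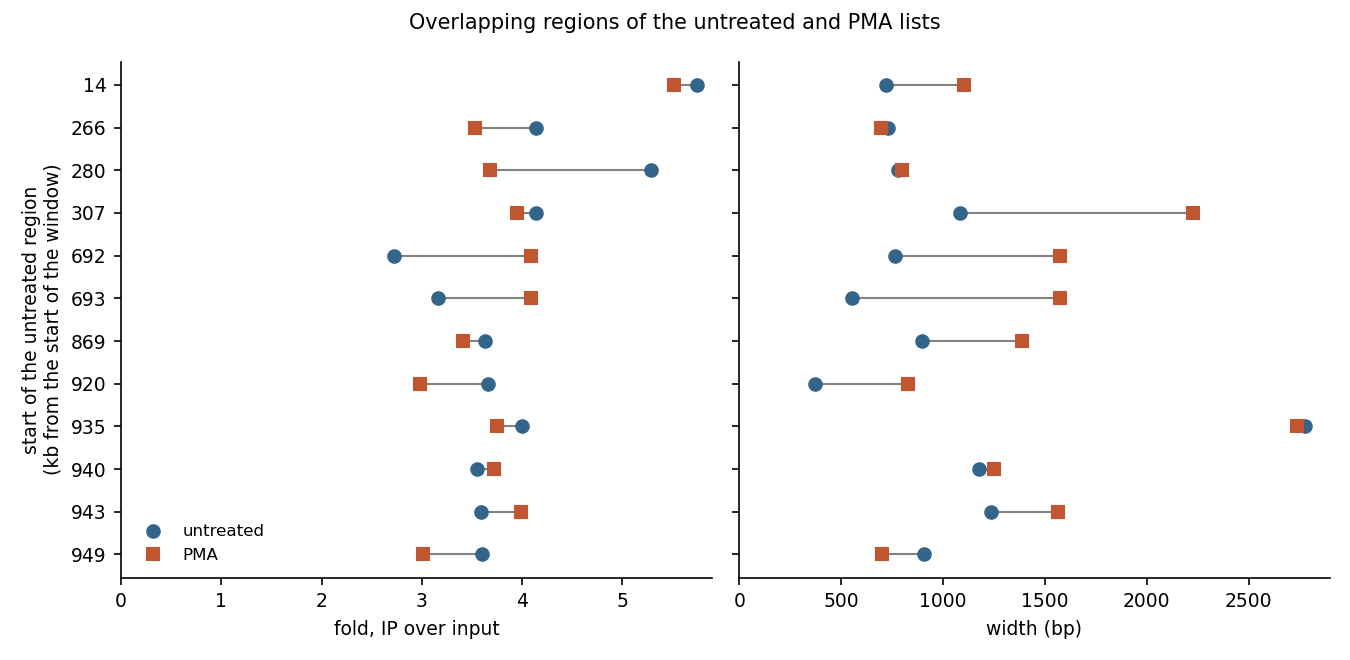
Fold of IP over input (left panel) and width in bp (right panel) of the 12 overlapping pairs, ordered by the start of the untreated region in kb from the window's start. Circles are untreated and squares PMA values, and 1 PMA region is drawn with each of its 2 untreated partners. Folds are higher untreated in 8 pairs and widths are higher after PMA in 9. Over the whole lists, PMA regions with a partner also have the higher median width.

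The 6 PMA regions without an untreated partner had folds of 2.83 to 3.47, and the 11 with one 2.99 to 5.52. The first 3 formed the first PMA group, at 84913720 to 84914384 (fold 2.83), 84915575 to 84916608 (3.00) and 84926351 to 84926736 (3.16). They lay within the span of the fourth untreated group, at 1753, 1399 and 934 bp from the nearest untreated region. In that group the lists thus held 6 and 3 regions with no base in common. Over the whole lists, only 15.5% of untreated regions and 54.8% of PMA regions overlapped a region of the other list. The region at 84955374 to 84956211 was 794 bp from an untreated one, and that at 85114151 to 85114948 (3.07) was 408 bp away. The last, at 85011460 to 85012080 (2.95), was 13.2 kb from any untreated region and fell in the 65.2 kb gap between the fifth group and the sixth.

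The 42 untreated regions without a PMA partner had a median fold of 3.12 and a median width of 522 bp, and the 12 with one had 3.65 and 837 bp. Over the whole untreated list the medians were 3.65 without and 3.63 with a partner for fold, and 505 and 713 bp for width. Of the 42, 26 lay within 10 kb of a PMA region. This count is a description, because the window was chosen for its crowding and the share over the whole list was not computed. The strongest were the region at 84957447 to 84958315 (5.41), the lone region at 84590541 to 84590746 (5.02) and that at 84419647 to 84420050 (4.72). The lone region was the farthest from any PMA region, at 113 kb, and was also the narrowest of the window.

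The 4 other fullest 1 Mb windows of the untreated list, on chromosomes 14, 17 and 18, held 53 to 68 untreated and 13 to 19 PMA regions. Their median folds were 2.51 to 2.84 untreated and 2.36 to 2.89 after PMA, each below the 3.29 and 3.47 of the chromosome 10 window. Their PMA regions overlapped an untreated region in 78.9% to 94.4% of cases, above the 64.7% here, and their untreated regions a PMA region in 19.7% to 29.5%, a range that includes the 22.2% here. These windows were chosen by the same count of regions, and the differences were not tested.

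No region lay close outside the bounds of the window. The nearest untreated regions outside lay 108 kb before the first (84068425 to 84069265, fold 3.82, against 3.72 for the first inside) and 292 kb after the last (85411446 to 85412051, 2.49, against 3.60 for the last inside). The nearest PMA regions outside were 114 kb before (84068472 to 84069183, 4.83) and 297 kb after (85416668 to 85417533, 4.35).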

How the data were processed

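RNAchIP-seq libraries were directional total RNA libraries read as 65 bp single-end reads, per the labels' protocols. MACS2 2.1.0, STAR 2.5.0a, cutadapt 1.11, deepTools, Subread's featureCounts 1.4.6-p3 and mm9 appear in the submitters' processing notes, without roles, and how peaks were called and filtered is not given in the sources used here. In narrowPeak layout, the deposited lists give for each region a score, a fold ratio of IP over input, −log10 p and −log10 q, read as the authors' means over member peaks, and a summit offset, not used.

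Members are rows overlapping the window. Groups, widths, gaps, partners and member peaks were computed with scipy 1.17.1, numpy 2.4.6 and pandas 2.3.3 in Python 3.11.15 and drawn with matplotlib 3.10.9. Only the grouping and the partner overlap were checked on simulated lists. Starts are 1-based. Groups end at gaps of over 10 kb, and partners overlap by at least 1 bp. Intervals are 95% (exact Clopper-Pearson, or order statistics for medians) and cover counting error only; depth is unknown. The window's share of peaks per replicate was compared by an exact permutation test, added after seeing the data. Regions were named by a rule: the 5 highest folds per list, the 3 widest untreated, those with the most member peaks, all pairs, all PMA regions without a partner, and those at the window's edges. Regions named beside these were chosen after their values were seen. The members, lists and rules were chosen with earlier results of these data known. Clock genes other than Cry1 were planned but need mm9 positions and are not analysed here.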

Additional observations from a re-analysis of the deposited data

How the results depend on the processing

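For 10 results, 64 alternative values were computed, of which 32 stayed within 1.5 times the count, or within the 95% interval of the share or median. Leaving out 1 untreated replicate gave 10 to 15 untreated regions in 2 to 4 groups, median widths of 1061 to 1120 bp (with bounds still joined over 3 replicates), median folds of 3.36 to 3.55, 33.3% to 45.5% with a PMA partner, and 23.5% to 29.4% of PMA regions with an untreated one. Leaving out PMA replicate 2 or 3 left 1 PMA region and 0 groups, with a width of 1388 to 2227 bp, a fold of 3.41 to 3.95, a partner in 100% of cases, and 1.85% of untreated regions with a partner. By construction, these lists keep regions with 3 member peaks from the replicates left. With a mean −log10 q that stands for a q of 0.001 or lower, 34 untreated regions and 1 PMA group remained. At the PMA list's length, 12 untreated regions remained in 2 groups, with a median fold of 4.07, and 23.5% of PMA regions had a partner. Untreated groups numbered 11 with gaps of up to 5 kb and 4 with 20 kb. No paired analysis was possible because the lists hold no fold or width per library, and the peak counts per replicate come from 3 untreated and 2 PMA replicates with no stated pairing.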
